A study of Cannabis sativa with 10 samples.

Results

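A set of 7 floral MADS-box genes of Cannabis sativa was followed through apical shoot tips, from vegetative growth to week 3 of flower development. They are the 7 genes of the deposited table described as MADS4, MADS2, MADS3 or CAULIFLOWER A whose closest Arabidopsis protein is a SEPALLATA or AGL6 protein, out of 35192 genes in all. All 7 were among the 18309 genes that passed a filter on low values, set at a group mean of 1 FPKM or more in any of the groups. Messenger RNA was sequenced in 10 libraries, 2 in each of 5 groups, and all of them came from the same genotype, A3. The vegetative group carries no flower induction in its labels. The female groups were sampled at week 1 and week 3 of female flower induction, and the male groups at the same weeks of male flower induction with STS. STS is read here as silver thiosulfate, an inhibitor of ethylene action used to obtain male flowers on female cannabis. Every male library was treated and no other library was, so flower sex and treatment cannot be told apart. The labels do not say whether the 2 libraries of a group came from separate plants, so the p-values here rest on a spread between libraries that may be no more than technical.

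MADS-box transcription factors of the SEPALLATA class (class E) act as the common partners of the floral organ identity proteins. In Arabidopsis they join class A, B and C proteins into the complexes that specify petals, stamens and carpels, and without them floral organs turn into leaf-like or sepal-like structures. AGL6 proteins form the sister clade of the SEPALLATA proteins and take part in floral meristem and organ identity in petunia, rice and maize. In Arabidopsis SEPALLATA1, SEPALLATA2 and SEPALLATA3 switch on after the floral meristem has been specified, and SEPALLATA3 has the widest set of protein partners in its class.

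The closest protein to LOC115712087, described as MADS4, was SEPALLATA3, with 76.11% identity, the highest of the 7. The gene lies on chromosome 4 of assembly ASM2916894v1 at 12387288 to 12398632, plus strand. The genes described as MADS2, 3 in all, were closest to SEPALLATA2. LOC115709018 lies on chromosome 3 at 69561538 to 69577089, plus strand, and had 59.06% identity. LOC115700827 lies on chromosome 8 at 44067771 to 44084580, minus strand, with 68.94% identity, and LOC115700828 on the same chromosome and strand at 44080221 to 44084708, with 71.04% identity. These last 2 genes share 4360 bases, which is nearly all of the 4488-base span of LOC115700828. Reads from the shared stretch could be given to either gene by the authors' counting, so the division of signal between them is uncertain. The AGL6-closest genes, both described as MADS3, were LOC115716337 on chromosome 5 at 16651054 to 16669903 and LOC115704294 on chromosome 1 at 37798871 to 37811060, both on the minus strand, with 56.73% and 61.24% identity. LOC115701144, on the minus strand of chromosome 8 at 29103501 to 29160083, is described as truncated transcription factor CAULIFLOWER A but was closest to SEPALLATA1, with 54.58% identity, so that its description and its closest protein name different MADS-box clades. It is called SEPALLATA1-closest below. RefSeq lists 1 transcript for each AGL6-closest gene and 2 to 4 for the others. A further pair of genes closest to SEPALLATA1, LOC115700576 and LOC133030224, described as CMB1 and CMB1-like, was listed at 0 in all 10 libraries.

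Totals of FPKM, a fragment level normalised for gene length and library size, ran from 603616 to 764672 per library and were lowest in the female week 3 libraries. Read depth is not known. Relative to female week 1 replicate 1, depths lay between 0.863 and 1.24, as judged from the steps of low values. Of 8 shoot apical meristem markers, 6 or 7 reached a mean of 1 FPKM in every group, while WUSCHEL was at 0 in both vegetative libraries. Their summed level was 27.0 to 29.5 FPKM in male week 3 libraries and 36.1 to 56.2 FPKM in the others. WUSCHEL went the other way, with a mean of 4.21 FPKM in week 3 males as against 0.303 in week 3 females. So did the CLAVATA1-like LOC115721001, which averaged 0.342 FPKM in week 3 males and was at 0 elsewhere. The remaining markers were lower in week 3 males than in week 3 females. The summed level of 14 tapetum and pollen genes was 18.5 to 29.5 FPKM in the 4 other groups and 1897 to 2865 FPKM in male week 3, where 13 of 14 genes reached 1 FPKM. The 19 photosynthesis genes of leaf tissue summed to 25310 and 31360 FPKM in vegetative libraries, as against 7121 and 7459 among week 3 females and 5006 and 5934 among week 3 males. The 7 ovule and carpel genes summed to 143.8 and 165.1 FPKM among week 3 females and 281.7 and 313.8 among week 3 males. There LOC115700192, described as AGAMOUS and closest to SEEDSTICK, alone averaged 270 FPKM, as against 2.63 for females. Its identity to SEEDSTICK was only 32%, as against 72.84% for AGL11 (LOC133031811), so its standing as an ovule and carpel marker is uncertain. SPATULA was also higher in males, at 19.8 against 14.4 FPKM. Their fellow markers CRABS CLAW and AGL11 (LOC133031811) went the other way and averaged 20.7 and 76.8 FPKM in week 3 females, as against 0.607 and 1.01 FPKM in week 3 males. AINTEGUMENTA (LOC115712812) and the INNER NO OUTER-closest LOC115712472 were likewise lower in males, and LOC115702756 was below 1 FPKM in every group. These marker levels moved with the groups, and their part in the results below was not tested. In bulk tissue, fewer cells of a type and less RNA per cell cannot be told apart.

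Together the 7 genes went from a few FPKM in vegetative apices to levels many times higher at week 3. Their summed level was 5.64 and 3.71 FPKM in the vegetative libraries, with 25.6 and 30.0 for week 1 females and 44.0 and 25.7 for week 1 males. It reached 299 and 248 FPKM for week 3 females but 140 and 126 for week 3 males. The week 1 groups overlapped, and the female week 3 libraries were above the male week 3 libraries, which were above all others. Counting LOC115700827 and LOC115700828 as separate genes enters their shared stretch into this sum in a way that the files do not resolve.

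**Figure D1:**
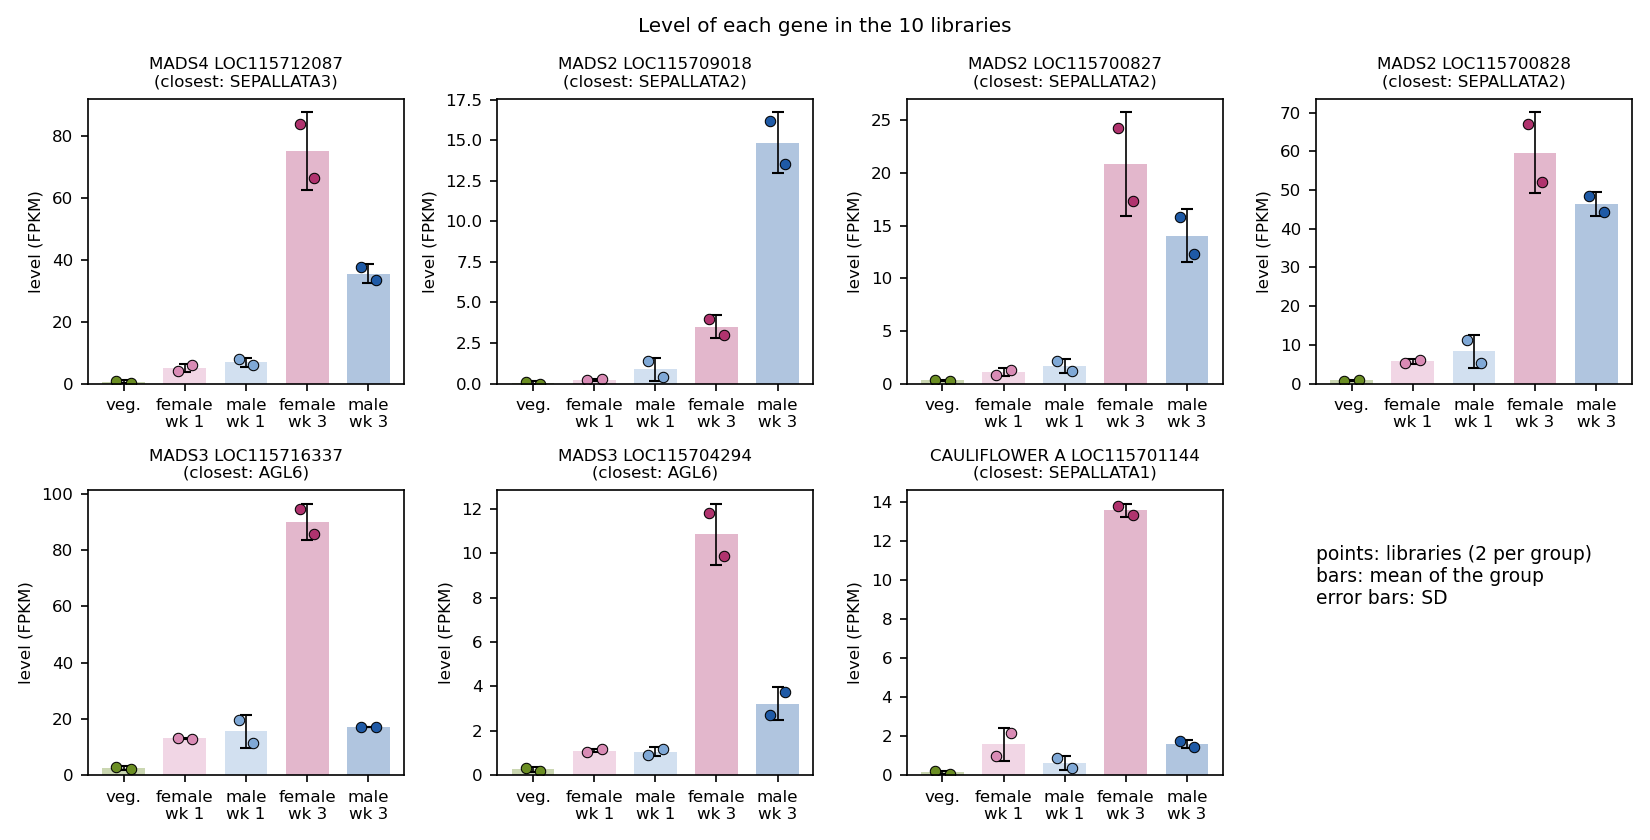
Level of each of the 7 genes in FPKM (vertical axis, a separate linear scale for each gene) in the 5 groups; points are libraries (2 per group), bars group means and error bars SD. In 6 genes female week 3 is the highest group, and in LOC115709018 it is male week 3, at 14.9 against 3.51 FPKM.

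The SEPALLATA3-closest gene LOC115712087 was among the most abundant of the 7 at week 3. The vegetative libraries had 0.871 and 0.280 FPKM, week 1 females 4.16 and 5.94, week 1 males 7.85 and 5.84, week 3 females 83.9 and 66.3, and week 3 males 37.6 and 33.4. The female and male libraries overlapped at week 1 and lay apart at week 3, with female higher. On the log2(FPKM + 1) scale, which understates changes of low genes, it rose by 1.95 ± 0.23 (log2 difference ± SE) from vegetative to female week 1 and by 2.33 ± 0.23 to male week 1 (limma, adjusted p = 0.00185 and 0.000595). From week 1 to week 3 it rose by a further 3.66 in female and 2.23 in male apices (limma, adjusted p = 6.8e-06 and 1.7e-05). At week 3 male apices were lower by a log2 difference of -1.05 ± 0.23 (limma, adjusted p = 0.00265).

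The SEPALLATA2-closest genes did not share 1 pattern. For LOC115709018 the vegetative libraries had 0.121 and 0 FPKM, week 1 females 0.192 and 0.249, week 1 males 1.37 and 0.372, week 3 females 4.0 and 3.02, and week 3 males 16.2 and 13.5. It was the only one of the 7 with its highest level in male week 3, where both libraries lay above every other library. The log2 difference of male minus female at week 3 was 1.82 ± 0.25 (limma, adjusted p = 0.000129). Its week 1 levels lay near or below 1 FPKM, where values are imprecise, and neither week 1 group differed from vegetative apices past the threshold (limma, adjusted p = 0.761 for female and 0.107 for male). The male week 1 difference was 0.77 with both libraries and 1.16 without the lower one, replicate 2 (limma, adjusted p = 0.0108), and it also passed with a pseudocount of 0.1, at 2.49 (limma, adjusted p = 0.0256). Between week 1 and week 3 it rose by 1.88 in female and 3.13 in male apices (limma, adjusted p = 0.000397 and 2.5e-06). The log2(FPKM + 1) scale understates changes from such low levels. The authors' deposited table lists nearly equal log2 fold changes for these rises, 4.06 in female and 4.07 in male apices.

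The overlapping pair on chromosome 8 rose to week 3 in both sexes and was not called between them there. For LOC115700828 the vegetative libraries had 0.771 and 0.914 FPKM, week 1 females 5.34 and 6.15, week 1 males 11.3 and 5.30, week 3 females 67.0 and 52.2, and week 3 males 48.5 and 44.2. LOC115700827 was at 0.337 and 0.245, 0.799 and 1.33, 2.10 and 1.16, 24.3 and 17.4, and 15.8 and 12.3 FPKM in the same order. In both genes the male week 3 libraries lay below the female ones without overlap, yet the differences did not pass the test. The log2 difference of male minus female was -0.35 ± 0.26 for LOC115700828 (95% interval -0.94 to 0.25; limma, adjusted p = 0.282) and -0.53 ± 0.24 for LOC115700827 (95% interval -1.06 to 0.00088; limma, adjusted p = 0.0780). With all libraries scaled to a common total, LOC115700827 passed, at -0.81 (limma, adjusted p = 0.0192), and with quantile normalisation both did, at -0.67 and -0.71 (limma, adjusted p = 0.0270 and 0.0315). LOC115700827 also passed with only the 2 groups compared in the fit (limma, adjusted p = 0.0386) and without either male week 1 library (0.0466 and 0.0462). The ratio of LOC115700828 to LOC115700827, both in FPKM and therefore per length, ran from 2.29 to 6.68 over the 10 libraries and from 2.76 to 3.59 over the 4 week 3 libraries. With the values of both genes summed and fitted as 1 gene, the rise from vegetative to female week 1 was 1.87 (limma, adjusted p = 0.00479). Taken alone, LOC115700827 differed there by 0.67 ± 0.24 and did not pass (limma, adjusted p = 0.168), except with a pseudocount of 0.1, at 1.55 (limma, adjusted p = 0.0320).

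The SEPALLATA1-closest gene LOC115701144 was high in female week 3 libraries. The vegetative libraries had 0.194 and 0.0728 FPKM, week 1 females 0.987 and 2.17, week 1 males 0.875 and 0.382, week 3 females 13.8 and 13.3, and week 3 males 1.74 and 1.45. The male week 3 libraries fell within the range of female week 1, and both female week 3 libraries were above all 8 others. At week 3 the log2 difference of male minus female was -2.49 ± 0.23, the lowest of the 7 (limma, adjusted p = 9.5e-06). It rose by 2.54 from week 1 to week 3 in female apices (limma, adjusted p = 6.2e-05). In male apices the difference was 0.69 ± 0.23 (limma, adjusted p = 0.0271), a call that was lost with quantile normalisation (0.14, adjusted p = 0.611), without male week 1 replicate 2 (0.47, adjusted p = 0.159) and without either male week 3 library (0.61 and 0.77, adjusted p = 0.126 and 0.0635).

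Of the AGL6-closest genes, LOC115716337 was the more abundant in every library. Its vegetative libraries had 3.01 and 2.02 FPKM, week 1 females 13.1 and 13.0, week 1 males 19.6 and 11.4, week 3 females 94.6 and 85.6, and week 3 males 17.2 and 17.1. Male week 3 lay inside the range of male week 1, and female week 3 stood above all other groups. It was the highest of the 7 genes in each vegetative, week 1 and female week 3 library. The change from week 1 to week 3 was 2.70 ± 0.22 in female apices (limma, adjusted p = 3.1e-05) and 0.18 ± 0.22 in male apices (95% interval -0.31 to 0.67; limma, adjusted p = 0.490). The male value depended on the week 1 library used: it was 0.55 without male week 1 replicate 1 (limma, adjusted p = 0.0222) and -0.18 without replicate 2 (limma, adjusted p = 0.404). At week 3 male apices were lower by a log2 difference of -2.33 ± 0.22 (limma, adjusted p = 9.5e-06).

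LOC115704294, the other AGL6-closest gene, had the same order of groups at week 3 at a lower level. Vegetative libraries had 0.332 and 0.184 FPKM, week 1 females 1.05 and 1.16, week 1 males 0.918 and 1.19, week 3 females 11.8 and 9.89, and week 3 males 2.70 and 3.75. The week 1 groups overlapped, while the week 3 groups lay apart from each other and from all other libraries. It rose in both sexes from week 1 to week 3, by 2.49 ± 0.18 in female and 1.03 ± 0.18 in male apices (limma, adjusted p = 1.6e-05 and 0.000626), and at week 3 the log2 difference of male minus female was -1.50 ± 0.18 (limma, adjusted p = 5.2e-05).

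Set side by side at week 1, 5 of 7 genes had risen in female apices against vegetative apices, where 2.67% of all genes tested were called higher. The 5 were LOC115712087, LOC115700828, both AGL6-closest genes and LOC115701144. In male apices 5 of 7 had also risen, against 3.54% of all genes, with LOC115700827 called in place of LOC115701144. None fell, while 2.27% of all genes fell in the female and 2.86% in the male comparison. Most of the 7 lay under 1 FPKM in vegetative apices and passed the filter only through a flowering group. A fall of those genes could hardly have been called, so the absence of falls is not a result. The same filter favours rises among them, so all genes tested are not a like comparison for the 5 of 7. The median log2 difference of the 7 was 1.15 for female and 1.00 for male apices, beside 0 and 0.0047 over all genes tested. The calls of the less abundant genes were close to the threshold: LOC115704294 had adjusted p = 0.0452 and 0.0471 (limma), and leaving out 1 library lowered the counts to 3. That happened in the female comparison without vegetative replicate 1, vegetative replicate 2 or female week 1 replicate 2. In the male comparison it happened without either vegetative library or male week 1 replicate 1. LOC115701144 differed by 0.51 in male week 1 and did not pass (95% interval -0.016 to 1.03; limma, adjusted p = 0.262).

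By week 3 all 7 genes had risen against vegetative apices in female apices, where 19.8% of all genes tested were called higher, and in male apices, where 34.8% were. On the log2(FPKM + 1) scale, differences ran from 2.08 in LOC115709018 to 5.61 in LOC115712087 in female apices. In male apices they ran from 1.20 in LOC115701144 to 4.68 in LOC115700828. The medians were 4.06 and 3.53, beside 0.015 and 0.051 over all genes. Most of the 7 passed the filter only through a flowering group, LOC115709018 only through week 3, and could hardly have fallen. The filter thus favours rises among them, and all genes tested are not a like comparison. The scale also understates changes of low genes. For LOC115709018 the authors' deposited table lists 5.885 in female and 7.974 in male apices, the latter the highest of the 7. Both comparisons share the vegetative libraries. From week 1 to week 3, 7 of 7 rose in female apices, against 18.7% of all genes, and 6 of 7 in male apices, against 33.8%, with medians of 2.70 and 2.23.

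Between male and female apices at week 1, 0 of the 7 genes were called by limma's adjusted p, and 0.137% of all genes were. Male apices lay above female ones in 5 of the 7 by the group mean. At an unadjusted p under 0.05, 2 of the 7 differed, LOC115709018 with a log2 difference of 0.56 (95% interval 0.012 to 1.11) and LOC115701144 with -0.64 (95% interval -1.17 to -0.12). At that unadjusted threshold 6.02% of all genes tested differed. Both had week 1 libraries that did not overlap between the sexes, LOC115709018 with male higher, where 16.9% of all genes tested had libraries apart in that direction, and LOC115701144 with female higher, where 14.3% did. The intervals of the other 5 genes ran between -0.44 and 0.98. The male week 1 libraries differed from each other, replicate 1 being higher in 6 of 7 genes.

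At week 3, 4 of the 7 genes were lower in male than in female apices, where 28.6% of all genes tested were called lower, and 1 was higher, where 31.7% were. A majority of all genes, 60.3%, differed at week 3, so the count of 5 of 7 is close to the share of all genes. The 4 lower genes were LOC115701144, LOC115716337, LOC115704294 and LOC115712087, and the higher one was LOC115709018. The median of the 7 was -1.05, beside -0.019 over all genes. Scaling all libraries to a common total moved the median of all genes to -0.26, and the direction of each of the 7 was kept under that scaling and under quantile normalisation. The libraries of the sexes did not overlap in any of the 7, 6 with female higher, as in 41.9% of all genes, and 1 with male higher, as in 41% of all genes.

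The test of the difference between the week 3 and the week 1 male minus female values found it lower for 4 genes, where 19.9% of all genes tested were called lower, and higher for 1, where 25.8% were. In all, 45.6% of genes were called in this test. The values were -2.52 ± 0.31 for LOC115716337, -1.85 ± 0.33 for LOC115701144, -1.46 ± 0.25 for LOC115704294 and -1.43 ± 0.32 for LOC115712087 (limma, adjusted p = 0.000114, 0.00129, 0.00104 and 0.00483). For LOC115709018 it was 1.26 ± 0.35 (limma, adjusted p = 0.0145). That last call was lost with all libraries scaled to a common total (0.97, adjusted p = 0.0676), with a pseudocount of 0.1 (0.68, adjusted p = 0.507) and without female week 3 replicate 2 or male week 3 replicate 1 (1.10 and 1.13, adjusted p = 0.0610 and 0.0570). The overlapping pair did not pass, at -0.87 for LOC115700827 and -0.74 for LOC115700828 (limma, adjusted p = 0.0586 and 0.138). Both passed with quantile normalisation, at -0.99 and -1.11 (limma, adjusted p = 0.0297 and 0.0271), and without male week 1 replicate 2, at -1.13 and -1.22 (limma, adjusted p = 0.0179 and 0.00183). LOC115700827 also passed with all libraries scaled to a common total, at -1.18, and without female week 3 replicate 2, at -1.10 (limma, adjusted p = 0.0227 and 0.0436).

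**Figure D2:**
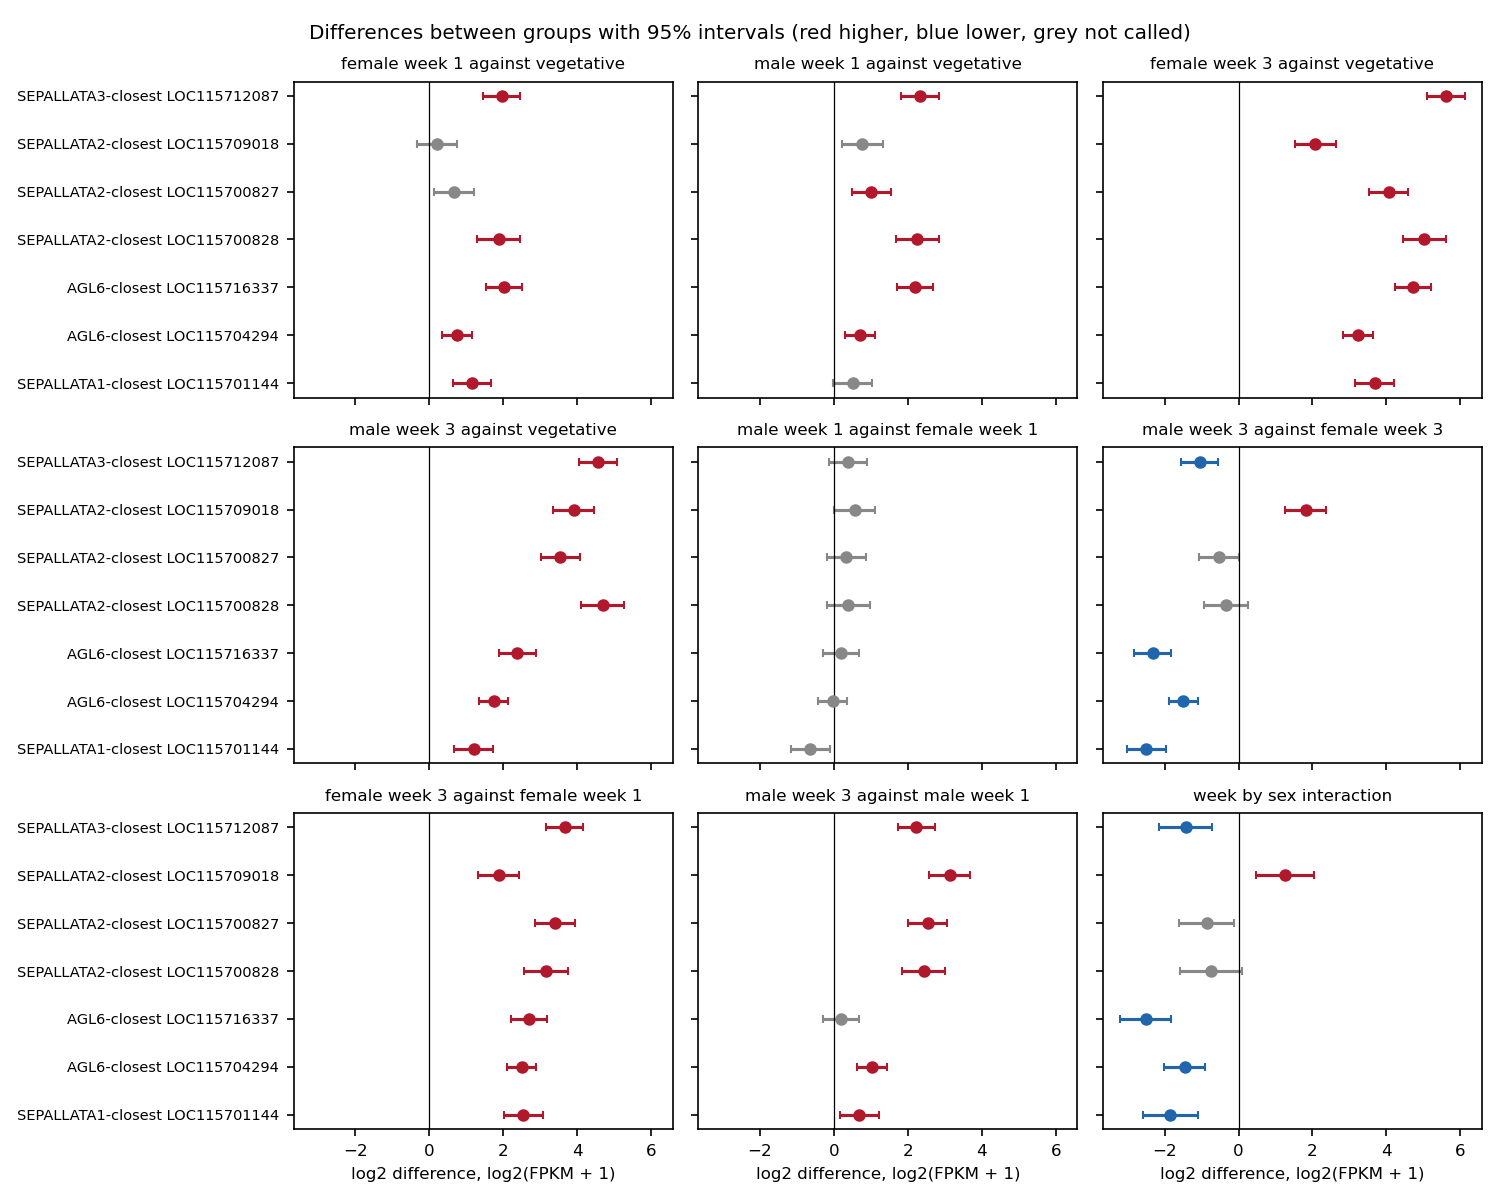
Log2 difference on the log2(FPKM + 1) scale (horizontal axis) of each gene in the 8 comparisons and the week by sex interaction; points are limma estimates, bars 95% intervals, red called higher, blue called lower and grey not called at an adjusted p of 0.05. In the male against female panels no gene is called at week 1, while 4 are lower at week 3 and LOC115709018 is higher.

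The makeup of the summed level changed along with its size. The AGL6-closest LOC115716337 made up 53.4% and 54.4% of the sum in vegetative libraries, 43.3% to 51.0% at week 1 in both sexes, 31.6% and 34.5% among week 3 females, and 12.3% and 13.6% among week 3 males. The share of LOC115712087 was nearly the same in both sexes at week 3, 28.0% and 26.8% in female and 26.9% and 26.6% in male libraries. LOC115700828 held 22.4% and 21.1% in female and 34.7% and 35.1% in male week 3 libraries, and LOC115709018 held 1.34% and 1.22% against 11.6% and 10.8%. These shares are a description of the libraries, without a test, and a share falls when another gene rises. They also rest on the uncertain division of signal between LOC115700827 and LOC115700828. With that pair counted once, 13 of 30 mean shares moved by more than the spread between replicates.

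**Figure D3:**
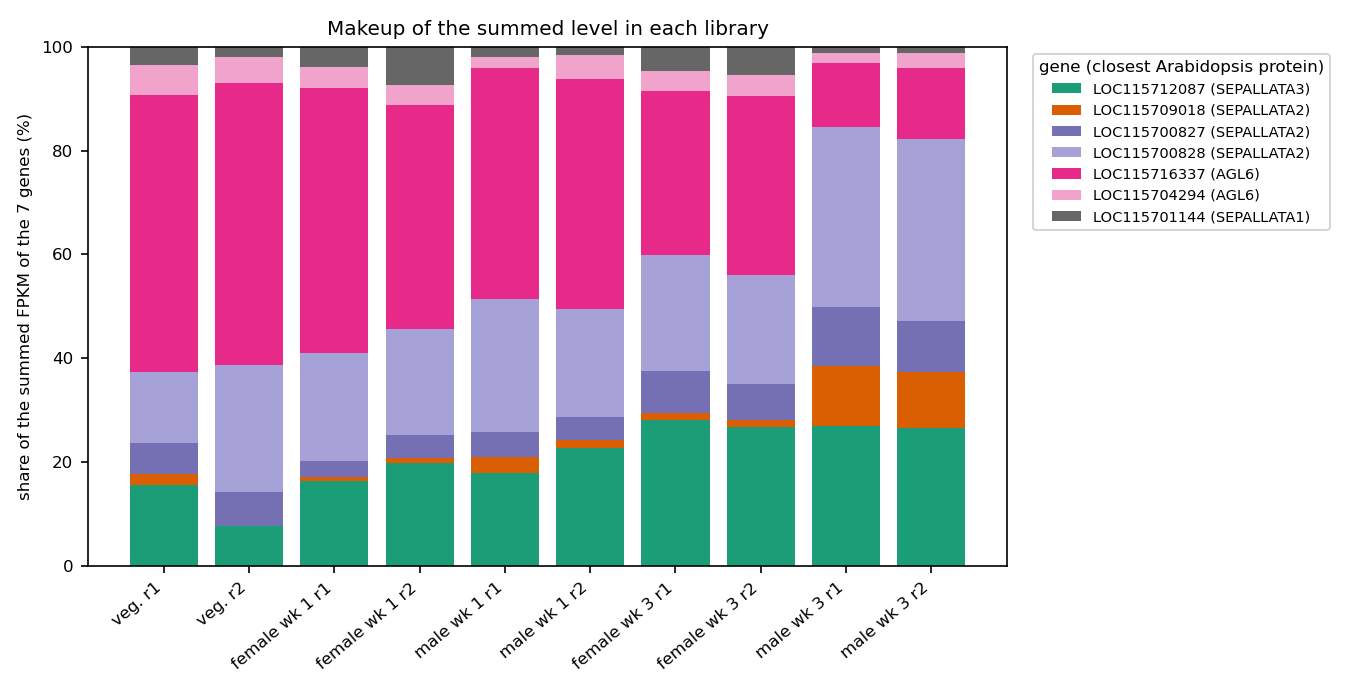
Share of each gene in the summed FPKM of the 7 genes (vertical axis, %) in each of the 10 libraries (horizontal axis); each stacked colour is 1 gene, named with its closest Arabidopsis protein. The AGL6-closest LOC115716337 goes from 53.4% and 54.4% in the vegetative libraries to 12.3% and 13.6% in the male week 3 libraries.

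Among the 7, profiles over the 10 libraries were most alike for LOC115712087 and LOC115700828 (Pearson r = 0.988 on log2(FPKM + 1), n = 10 libraries) and least alike for LOC115709018 and LOC115701144 (r = 0.425). The AGL6-closest genes had r = 0.929 with each other, and LOC115704294 had r = 0.941 with LOC115701144. All such values share the libraries and the rise from vegetative apices to week 3, and serve only to describe likeness. Outside the 7 genes, the gene with a named product whose profile was most like that of LOC115712087 was AGAMOUS (LOC115697576, r = 0.996), the class C gene of stamens and carpels. AGAMOUS averaged 0.387 FPKM in vegetative apices, with 3.56 for week 1 females, 4.54 for week 1 males, 77.5 for week 3 females and 37.7 for week 3 males, close to the levels of LOC115712087. It was also the MADS-box gene most like LOC115700827 and LOC115700828 (r = 0.984 and 0.985).

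For both AGL6-closest genes the most alike MADS-box gene was LOC115698701, described as MADS1 and closest to SHATTERPROOF1 (r = 0.972 with LOC115716337 and 0.981 with LOC115704294). In Arabidopsis SHATTERPROOF1 acts in carpel and fruit development. LOC115701144 was most like the Bsister gene FBP24-like (LOC115707234, r = 0.991), of a clade known for ovule and seed coat development, and AGL16 (LOC115709034, r = 0.991). LOC115709018 was most like AGL15 (LOC115710309, r = 0.972), which averaged 4.10 FPKM for week 3 females and 13.9 for week 3 males. By named product outside the MADS-box family, the most alike genes were a ubiquitin-conjugating enzyme for LOC115709018 (LOC115717295, r = 0.993), an extensin for LOC115700827 (LOC115714492, r = 0.993) and a flowering-promoting factor for LOC115700828 (LOC115723049, r = 0.987). For the AGL6-closest genes they were a cysteine-rich receptor-like kinase (LOC115707459, r = 0.995) and a plasma membrane ATPase (LOC115707204, r = 0.997).

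Several of the 7 lie near MADS-box genes of the SOC1 or APETALA1 and FRUITFULL clades, which act in flowering time and floral meristem identity in Arabidopsis. LOC115704294 lies 5440 bases from SOC1 (LOC115706939), on the opposite strand. SOC1 was at 41.1 FPKM in vegetative apices, 50.3 and 50.5 in the female and male week 1 groups, 16.5 for week 3 females and 8.17 for week 3 males (means of 2), so it fell against vegetative apices where LOC115704294 rose (log2 differences of -1.27 and -2.22; limma, adjusted p = 0.00153 and 1.1e-05). LOC115716337 lies 296819 bases from AGL42 (LOC115717309), another gene of the SOC1 clade, which also fell against vegetative apices at week 3 in both sexes (-1.36 and -2.55; limma, adjusted p = 0.000265 and 7.0e-07).

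The next gene after LOC115709018, 408129 bases away on the same strand, is the FRUITFULL-closest LOC115702300. It was at 0.188 FPKM in vegetative apices and at 45.3 and 47.6 in the female and male week 1 groups, when LOC115709018 was still at 0.221 and 0.870 FPKM. Beside LOC115700827, at 20574 bases, lies the APETALA1-closest LOC115701438, which averaged 21.8 to 27.6 FPKM in every group and was not called in any of the 8 comparisons. The APETALA1-closest LOC115698549 lies 134367 bases from LOC115701144. It went from 3.23 FPKM in vegetative apices to 44.0 for week 3 females and 7.68 for week 3 males, and its log2 difference of male minus female at week 3 was -2.37 (limma, adjusted p = 9.6e-06), beside -2.49 for LOC115701144. LOC115712087 has no such neighbour: its nearest MADS-box gene of this type, JOINTLESS (LOC115714329), lies 54057058 bases away on the same chromosome.

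**Figure D4:**
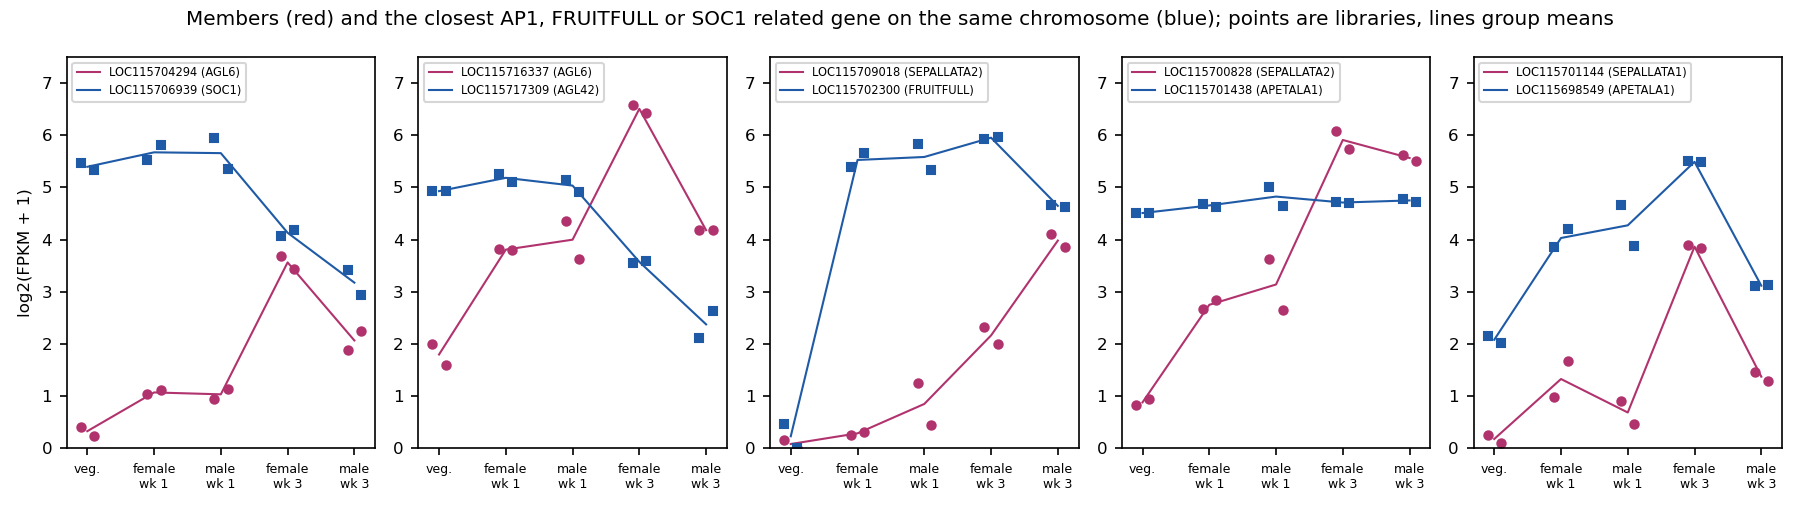
Level on the log2(FPKM + 1) scale (vertical axis) of 5 of the 7 genes (red) and of the nearest SOC1, APETALA1 or FRUITFULL clade gene on the same chromosome (blue) in the 5 groups; points are libraries and lines join group means. SOC1 and AGL42 are lower at week 3 than in vegetative apices while LOC115704294 and LOC115716337 are higher, and LOC115698549 follows the same order as LOC115701144 at week 3.

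Among 31 further MADS-box genes of the same type (type II), 23 could be tested. Of these, 8 were higher and 11 lower in male than in female apices at week 3, with a median log2 difference of -0.16. Of all genes tested, 31.7% were higher and 28.6% lower. The class B genes, which specify petals and stamens together with class E partners in Arabidopsis, were the furthest toward male: TM6 (LOC115714657) averaged 0.0977 FPKM for week 3 females and 163 for week 3 males, and PMADS 2 (LOC115699531) averaged 0.116 and 119. In class C and its relatives directions differed. AGAMOUS (LOC115697576) was lower in male apices by a log2 difference of -1.01 and AGL11 (LOC133031811) by -5.28, while the SEEDSTICK-closest LOC115700192 was higher by 6.22 (limma, adjusted p = 0.00723, 2.4e-08 and 8.2e-09). LOC115700192 had only 32% identity to SEEDSTICK, so its place among the relatives of class C is uncertain. Both Bsister genes were lower in male apices, by -3.17 and -2.72 (LOC115700907 and LOC115707234; limma, adjusted p = 2.5e-07 and 1.2e-05).

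The remaining higher genes in male apices at week 3 were SVP (LOC115721274), JOINTLESS (LOC115714329), AGL15 (LOC115710309), AGL19 (LOC115716986) and the MAF4-closest LOC133032954, which was listed at 0 in all other groups and averaged 20.2 FPKM in male week 3. The remaining lower ones were LOC115698701, LOC115698549, LOC115702300, SOC1, AGL42, AGL16 (LOC115709034) and the AGL16-closest LOC115704295. LOC115704295, described as CAULIFLOWER, had the highest mean over all libraries of the 31, at 119 FPKM, and averaged 190 for week 3 females and 95.9 for week 3 males. LOC115699728, LOC115701438, LOC115720605 and LOC115725163 were not called. Against vegetative apices, 11 of these 23 genes had risen and 7 fallen among week 3 females. Among week 3 males, 14 had risen and 4 fallen. Of all 18309 genes tested, 3623 rose and 3067 fell for females, while 6375 rose and 5117 fell for males. All 7 SEPALLATA and AGL6 like genes had risen in both comparisons. Most of the 7 lay under 1 FPKM in vegetative apices and could hardly have fallen. Several of the 23, such as SOC1 at 41.1 FPKM there, could fall, so the sets are not a like comparison. At week 1, 7 of the 23 had risen in each sex, and 3 had fallen in female and 4 in male apices.

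**Figure D5:**
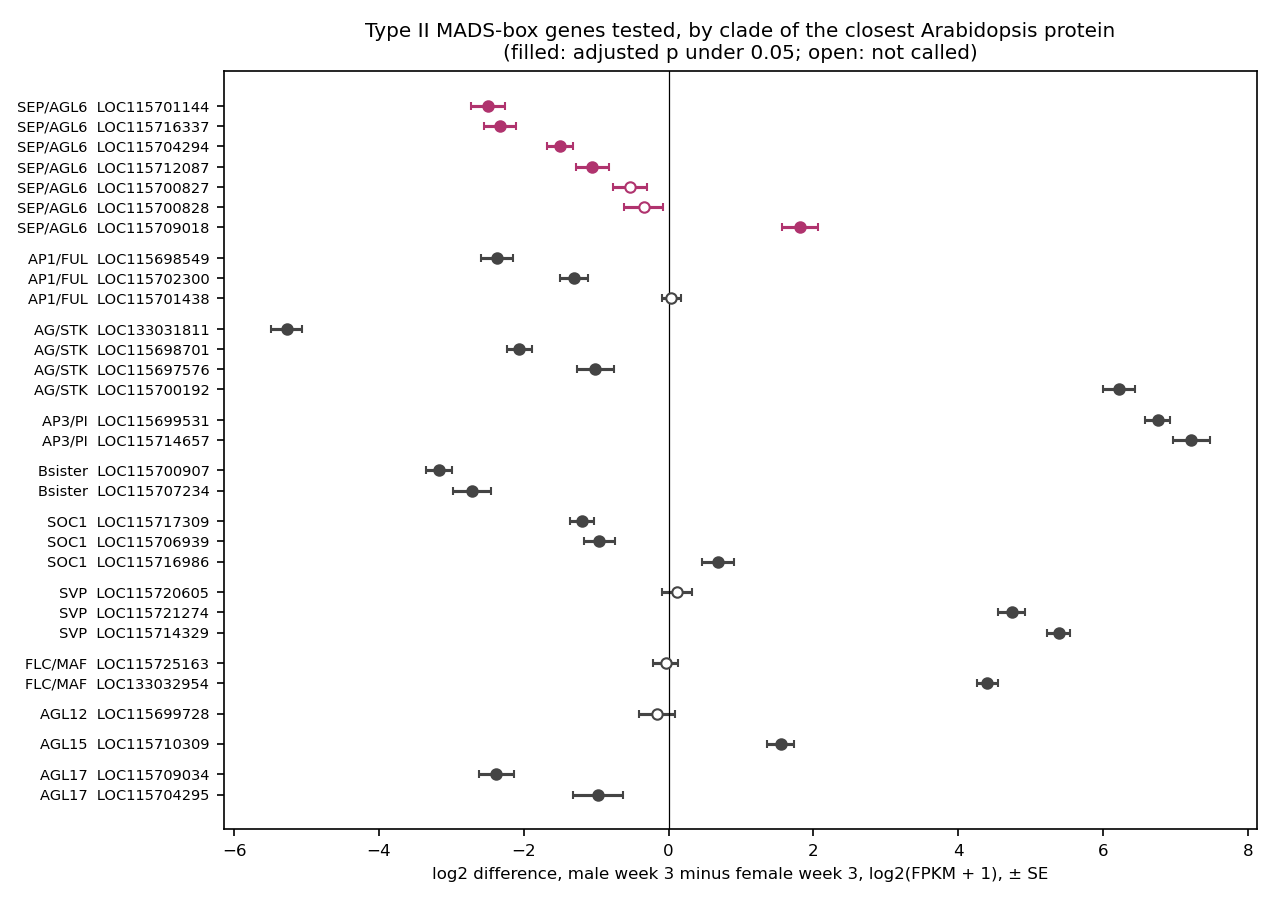
Log2 difference of male minus female at week 3 on the log2(FPKM + 1) scale (horizontal axis) for the 30 type II MADS-box genes tested, grouped by clade of the closest Arabidopsis protein, the 7 SEPALLATA and AGL6 like genes in red; points are limma estimates, bars ± SE, filled points called. The 7 genes run from -2.49 to 1.82, within a range set by AGL11 at -5.28 and TM6 at 7.22.

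Regulators listed as acting before floral MADS-box genes in Arabidopsis went in both directions, and the list does not separate promoters from repressors of flowering. Of 19 such genes 14 could be tested, and 4 were higher and 6 lower in male than in female apices at week 3. Of all genes tested, 31.7% were higher and 28.6% lower. LEAFY (LOC115695615), which specifies floral meristems, went from 1.07 FPKM in vegetative apices to 4.90 in female and 7.13 in male week 1, and was at 2.75 and 5.18 FPKM at week 3 (log2 difference 0.71; limma, adjusted p = 0.0149). The SPL4-closest LOC115700826, of the squamosa promoter-binding family that promotes flowering, averaged 58.5 FPKM for week 3 females and 11.4 for week 3 males (log2 difference -2.25; limma, adjusted p = 2.5e-06). A further SPL4-closest gene, LOC133033516, had the higher identity, 76.19% as against 58.27%. It stayed low in every group, at 1.54 FPKM in vegetative apices, 2.29 for week 3 females and 1.95 for week 3 males. Against vegetative apices 6 of 14 had risen and 3 fallen in female week 3, and 7 had risen and 6 fallen in male week 3. Of all 18309 genes tested, 3623 had risen and 3067 fallen in the first comparison, and 6375 and 5117 in the second.

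All 11 genes listed as partners or targets of floral MADS-box proteins, from work in Arabidopsis, could be tested, and 6 were higher and 5 lower in male apices at week 3. Of all genes tested, 31.7% were higher and 28.6% lower. SEUSS (LOC115710310), a corepressor that binds floral MADS-box complexes, averaged 46.2 FPKM for week 3 females and 25.5 for week 3 males (log2 difference -0.84; limma, adjusted p = 0.000199). Its partner LEUNIG is represented by LOC115702276 and LOC115706179, which were higher in male apices by 0.35 and 0.75 (limma, adjusted p = 0.0206 and 0.000226). The KNUCKLES-closest LOC115700338, named for a repressor of floral meristem activity, was at 44.8 FPKM in male week 3 and listed at 0 in both female week 3 libraries. CRABS CLAW (LOC115699020), a carpel regulator, was lower in male week 3 by a log2 difference of -3.75 (limma, adjusted p = 5.0e-07), and the SUPERMAN-closest LOC115723168 averaged 6.71 FPKM for week 3 females and 0.576 for week 3 males.

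In the authors' deposited table the fold changes of the 7 genes pointed the same way as the limma differences wherever that table gave a test. At week 3 the authors' deposited table lists log2 fold changes of male against female of -1.02 for LOC115712087, 2.13 for LOC115709018, -2.34 for LOC115716337, -1.70 for LOC115704294 and -3.03 for LOC115701144. For LOC115700827 the authors' deposited table lists -0.57 with an adjusted p of 0.0274, a call that the limma fit did not make. For LOC115701144 from male week 1 to male week 3 the authors' deposited table lists 1.36 with an adjusted p of 0.164, where limma made a call. For LOC115700827 in male week 1 against vegetative apices the authors' deposited table lists an adjusted p of 0.0536, where limma also made a call. For LOC115709018 from week 1 to week 3 the authors' deposited table lists 4.06 in female and 4.07 in male apices. The limma differences on the log2(FPKM + 1) scale were 1.88 and 3.13. LOC115709018 and LOC115701144 have no result in the authors' deposited table for the comparisons that involve only vegetative and week 1 libraries.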

How the data were processed

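Messenger RNA libraries were made by a sequencing company from kit-extracted, DNase-treated RNA of apical shoot tips, per the labels' protocols. Which aligner, counter and strand setting were used is not given in the sources. The authors deposited values per library without naming their unit. From their totals and low-value steps, the values deposited by the authors are FPKM, or equally RPKM, and are called FPKM. The deposited table also gives the authors' log2 fold change, p-value and percent identity to the closest Arabidopsis protein, and, per the file headers, coordinates of assembly ASM2916894v1. The files hold no counts, so counting error is not quantified. Transcript numbers came from RefSeq for the same assembly, and 34658 of 35192 symbols matched.

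The 18309 genes whose mean reached 1 FPKM in any group entered a limma fit (version 3.58.1, R 4.3.3) of log2(FPKM + 1). The fit held a coefficient for each of the 5 groups and used trended, robust empirical Bayes moderation. Contrasts were 2-sided, with p-values adjusted by Benjamini-Hochberg across all genes fitted and a threshold of 0.05. Lists, levels and likeness were computed with Python 3.11.15. The fit was also run on simulated data, for male against female at week 1 only, and no result here rests on that run. Named were the 7 genes, every other type II MADS-box gene with its call, for each of the 7 the genes with the highest Pearson correlation over libraries, and the nearest MADS-box genes. The regulators and partners given are examples chosen after their values were seen. The 7 genes and the lists were chosen with earlier results of these data known. Alternatives were another pseudocount, filter, scaling or moderation, only the groups compared, a replicate block, each library left out, and the overlapping pair summed. No sequences are printed, as none were used here.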

Additional observations from a re-analysis of the deposited data

Results flagged for a closer look

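For 5 of the 7 genes the male minus female difference changed between week 1 and week 3 by limma's test of that difference. The log2 change was -2.52 for LOC115716337, -1.85 for LOC115701144, -1.46 for LOC115704294, -1.43 for LOC115712087 and 1.26 for LOC115709018, with adjusted p-values of 0.000114, 0.00129, 0.00104, 0.00483 and 0.0145 (limma). At week 1 the male minus female differences of these genes were 0.19, -0.64, -0.04, 0.38 and 0.56, and at week 3 they were -2.33, -2.49, -1.50, -1.05 and 1.82. Of all genes tested 45.6% were called in this test. The call of LOC115709018 depended on the setting. It was lost with a pseudocount of 0.1 (0.68; limma, adjusted p = 0.507) and with all libraries scaled to a common total (0.97; limma, adjusted p = 0.0676). For its change from week 1 to week 3 the authors' deposited table lists nearly equal log2 fold changes, 4.06 in female and 4.07 in male apices.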

How the results depend on the processing

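The direction and the call of the 7 genes in 9 contrasts were recomputed under 19 settings, and 1129 of 1193 values kept both, 41 lost the call, 17 gained one and 6 turned direction. The count called in male week 1 against vegetative apices was 5, and 3 with no filter on low values, with quantile normalisation and with only the groups compared. Leaving out 1 library, it ranged from 3 to 5, and so did the count for female week 1 against vegetative apices. That range was 5 to 6 for male against female at week 3, 5 to 7 for male week 3 against male week 1, 4 to 7 for the interaction, 7 to 7 for both week 3 groups against vegetative apices and for female week 3 against female week 1, and 0 to 0 for male against female at week 1. Where a group was left with 1 library, that library was assumed to vary like the other groups.

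None of the 6 turned values was called. LOC115716337 from male week 1 to week 3 turned to -0.0018 with quantile normalisation and to -0.18 without male week 1 replicate 2, and was 0.55, a call, without replicate 1. For male against female at week 1, LOC115704294 turned to 0.0017 without female week 1 replicate 2. Without male week 1 replicate 1, LOC115704294 turned to 0.059, LOC115700828 to -0.094 and LOC115716337 to -0.17, while without replicate 2 they kept their direction, at -0.13, 0.87 and 0.55. The cause was not tested. LOC115704294 at week 1 lost its calls with the replicate block (adjusted p = 0.0689 for female and 0.0708 for male), and the block changed no other call. Both calls were also lost with no filter on low values, quantile normalisation, only the groups compared, and most omissions of 1 library. The call of LOC115700827 in male week 1 against vegetative apices was lost in those 3 settings too, and under several omissions. Replicate numbers are shared between groups but the labels pair no samples: deviations of same-numbered libraries correlated at -0.42 to 0.21 over 18309 genes. Quantile normalisation moved the median of all genes most in male week 3 against vegetative apices, by -0.30, and scaling to a common total most in male against female at week 3, by -0.24.

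Depth in reads is unknown, so levels under about 1 FPKM, as in the vegetative libraries for 6 of the 7 genes, are imprecise, and with 2 libraries a group the spread is taken from all 5 groups together. With the overlapping pair counted once, 13 of 30 mean shares moved by more than the spread between replicates.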
